A study of Mus musculus with 24 samples.

Results

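The question addressed here is what T3, the active thyroid hormone, still changed in mouse liver 6 h after injection when thyroid hormone receptor β (TRβ) was missing. It was read from 6 of the 24 arrays of the series, namely the 3 arrays titled as knockout with T3 and the 3 titled as knockout with PBS. The labels number each array separately but do not say whether the livers came from separate animals. The p-values thus rest on the spread between samples within a group, estimated over all 24 arrays and not over these 6 alone. The knockout mice (KO) were males of a C57BL/6J background, 8 to 9 weeks old. For 3 weeks they had received food low in iodine and water with methimazole (0.02%), perchlorate (0.5%) and saccharine (0.3%), which made PBS and T3 mice alike hypothyroid before the injection. T3 was given into the peritoneum at 20 µg per 100 g body weight. The labels describe the deletion no further: they give neither the part of the gene that was removed nor any limit to certain cell types. Wild-type mice (WT) and mice carrying the changes E125G and G126S in TRβ (GS), 6 arrays each, were treated in the same way. The other 6 arrays come from mice with the TRβ change Y147F, which were 10 to 11 weeks old, of C57BL/6JCrl background, and received more of both drugs (methimazole at 0.05%, perchlorate at 1%). Their deposited values had lost the decimal point, which was restored here. Their responses are given only beside those of KO. Their arrays also entered the filter and the estimate of spread per gene behind every call.

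T3 acts through 2 nuclear receptors, TRα and TRβ, which sit on DNA as partners of the retinoid X receptors and switch between repression and activation when the hormone binds. TRβ is the main form in hepatocytes, while TRα is found there at a lower level and remains when TRβ is deleted. Genes of deiodination, lipid synthesis and mitochondrial metabolism are the best known hepatic targets of the hormone.

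The arrays of the 8 groups were alike in overall brightness, with medians from 5.88 to 6.00 on the log2 scale. Thrb, the gene of TRβ, was read by 1 probe set, whose log2 intensity was 7.25, 6.82 and 6.89 in the KO PBS arrays and 7.11, 6.95 and 6.82 in the KO T3 arrays. In WT it was 6.64, 7.01 and 6.75 with PBS and 6.85, 6.38 and 6.76 with T3. The KO arrays were thus not lower, and this probe set gives no check of the label; its position relative to the deletion is unknown here. Thra, the gene of TRα, lay between 7.91 and 8.60 in the KO arrays and was not called with T3 (-0.28 ± 0.12, adjusted p = 0.425). Of the 9 hepatocyte markers tested, Alb, Apoa1, Apob, Ttr, Hnf4a, Cps1, Tat and Fgb lay above the 98th percentile of every KO array, and Ass1 between the 64.0th and the 80.2nd. The main axis of variation among the 6 KO arrays (32.0% of their variance) parted T3 (-16.96, -4.92 and -7.12) from PBS (5.48, 12.69 and 10.83). T3 replicate 1 and PBS replicate 2 stood at its ends.

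Few genes passed the test of a T3 response in the absence of TRβ. Of 14161 genes tested, 25 were called (0.177%), 18 of them higher with T3 (0.127%) and 7 lower (0.0494%), and 5 changed at least 2-fold (0.0353%). A call means an adjusted p under 0.05 in limma's moderated test, with Benjamini-Hochberg adjustment over all genes tested. Differences are given as log2 values, T3 minus PBS, ± SE with n = 3 arrays per group. The SE is limma's moderated one, from a spread per gene shared by all 8 groups and 24 arrays. It can thus be smaller or larger than the spread of the 6 KO arrays alone would give. The values are log2 intensities that the authors summarised with RMA, and each group holds only 3 arrays. At an unadjusted p under 0.05, 696 genes were higher (4.91%) and 773 lower (5.46%). In all 25 called genes the T3 arrays lay to 1 side of the PBS arrays, which was so in 15.2% of all genes tested. A call on these same arrays favours this arrangement, which is therefore a description. With each KO array left out in turn, 11 of the 25 kept their call in all 6 fits: 9030619P08Rik, Dio1, Lrat, Slc25a45, Adgrg3, C1qtnf2, Art3, Coq10a, Stat5a, Pdp2 and Hspb1. A fit on the 6 KO arrays alone called 6 genes, of which 9030619P08Rik, Coq10a, Dio1 and Slc25a45 were among the 25. A fit on the 18 arrays of WT, KO and GS, without Y147F, called 20 genes, of which 17 were among the 25.

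**Figure D1:**
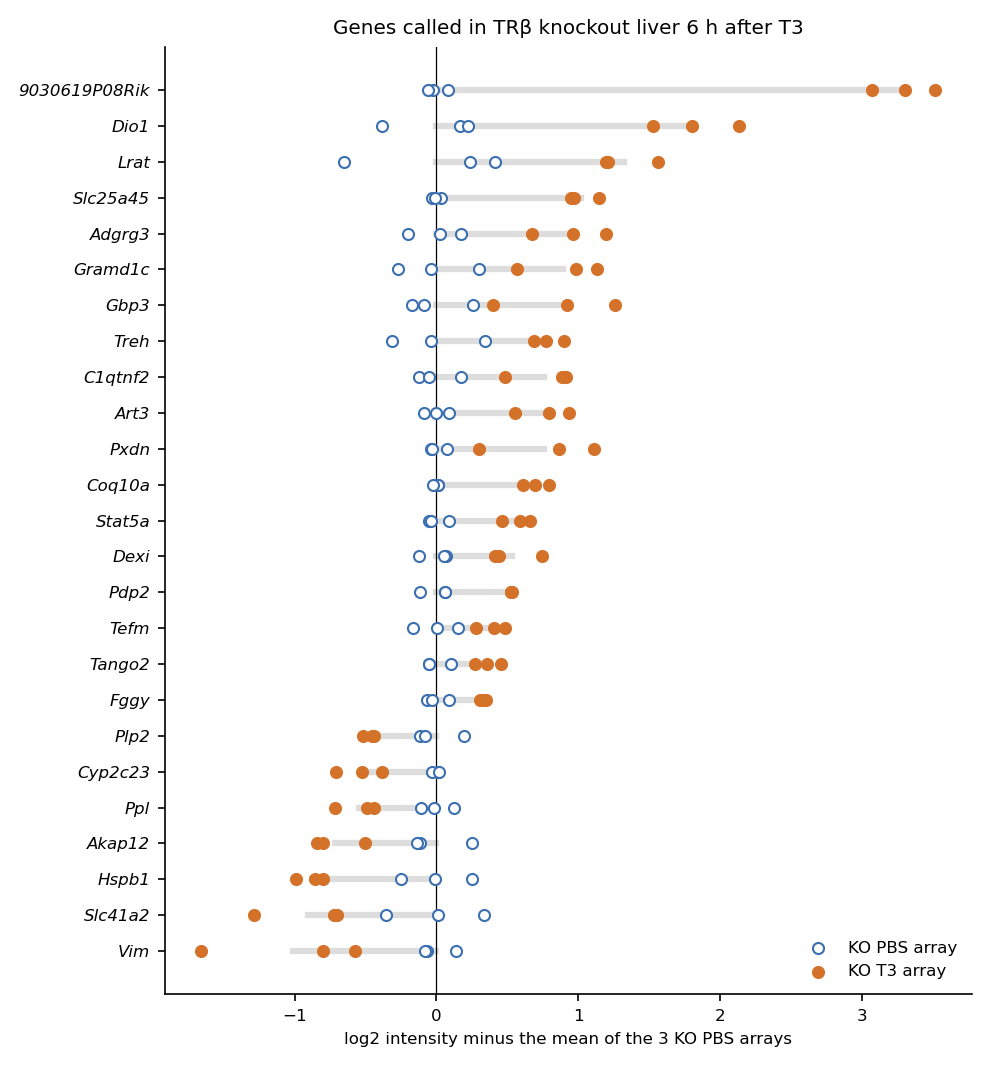
Each row is 1 of the 25 genes called in KO, and the x axis is the log2 intensity of an array minus the mean of the 3 KO PBS arrays. Open points are PBS arrays, filled points are T3 arrays and grey bars run to the T3 mean. The points of the 2 treatments do not overlap in any row, and the rise of 9030619P08Rik (3.30) and Dio1 (1.82) exceeds that of the other genes.

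The steepest rise was that of 9030619P08Rik, which RefSeq lists as a transcribed pseudogene. Its log2 intensity was 6.40, 6.50 and 6.36 in the KO PBS arrays and 9.73, 9.49 and 9.94 in the KO T3 arrays, a rise of 3.30 ± 0.26 or 9.85-fold (adjusted p = 6.58e-07). All T3 arrays stood far above all PBS arrays. Whether its probe set also reads related genes was not tested.

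Dio1, which encodes the deiodinase that converts thyroxine to T3 and clears reverse T3, was the classical target with the largest rise in KO. The PBS arrays read 6.09, 6.14 and 5.54 and the T3 arrays 7.45, 8.06 and 7.72. The groups were more than 1 log2 unit apart, and the rise was 1.82 ± 0.28, or 3.54-fold (adjusted p = 0.00383). Lrat, the enzyme that esterifies retinol for storage, followed with 8.55, 8.38 and 7.49 under PBS and 9.34, 9.35 and 9.71 under T3. PBS replicate 3 was the low array of its group, yet the groups did not overlap, and the rise was 1.33 ± 0.22 or 2.51-fold (adjusted p = 0.00865). Its dimmer second probe set gave 0.68 and was not called. Slc25a45, a member of the mitochondrial carrier family, was tight in both groups, at 9.11, 9.17 and 9.13 against 10.29, 10.11 and 10.09, and rose by 1.02 ± 0.13 (adjusted p = 7.73e-04).

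The RefSeq promoters of these 3 genes (build GRCm38.p6, 250 bases before and 50 after the start of the gene, 5′ to 3′ on the gene's strand) are shown because they are the largest rises with an entry in the promoter table. Capitals mark the 6-base motif AGGTCA or its reverse complement, to which thyroid hormone receptors and other nuclear receptors bind.
Dio1, chr4:107307119-107307418, minus strand: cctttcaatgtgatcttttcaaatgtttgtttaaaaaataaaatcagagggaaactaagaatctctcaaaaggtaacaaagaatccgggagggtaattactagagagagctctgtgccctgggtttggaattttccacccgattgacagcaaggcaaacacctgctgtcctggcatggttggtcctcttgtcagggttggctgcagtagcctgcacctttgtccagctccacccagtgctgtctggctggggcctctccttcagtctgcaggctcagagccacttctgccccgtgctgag
Lrat, chr3:82903925-82904224, minus strand: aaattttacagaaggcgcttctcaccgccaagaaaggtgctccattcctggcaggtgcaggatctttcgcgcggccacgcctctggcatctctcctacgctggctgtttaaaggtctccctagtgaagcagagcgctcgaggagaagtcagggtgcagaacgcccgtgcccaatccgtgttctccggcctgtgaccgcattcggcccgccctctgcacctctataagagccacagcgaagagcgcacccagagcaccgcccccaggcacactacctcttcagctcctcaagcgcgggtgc
Slc25a45, chr19:5877572-5877871, plus strand: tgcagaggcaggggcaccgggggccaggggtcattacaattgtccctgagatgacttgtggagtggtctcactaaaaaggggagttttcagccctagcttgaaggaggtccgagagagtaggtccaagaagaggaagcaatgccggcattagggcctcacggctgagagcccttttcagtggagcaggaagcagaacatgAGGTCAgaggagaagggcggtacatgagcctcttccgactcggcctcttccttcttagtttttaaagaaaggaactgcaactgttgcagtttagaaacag
The Dio1 and Lrat windows hold no copy of the motif on either strand, and the Slc25a45 window holds 1, which begins 50 bases before the start. Of the genes called higher in KO, 17 had an entry, and the motif stood in at least 1 window of 6 of them (35.3%). These were Slc25a45, Adgrg3, Treh, Art3, Coq10a and Stat5a. It stood in none of the 3 entries for genes called lower. The share was 17.6% of the 677 genes with an entry called higher in WT, 15.9% of 11374 genes tested with an entry and 18.1% of all 27025 genes in the table. The 17 genes had 27 windows, and the 11374 genes tested had 14465, so the former had more windows per gene in which to hold a match. AGGTCA repeated in the same direction after a spacer of 4 bases, the arrangement bound by TR and RXR together, stood in none of the called genes' windows and in those of 4 genes of the whole table. A match here is a match of letters, and no factor's binding was measured.

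The other called rises were smaller than 2-fold, and some of these genes belong to mitochondrial metabolism or hormone signalling. Coq10a, a coenzyme Q binding protein of the respiratory chain, read 8.58, 8.58 and 8.54 under PBS and 9.36, 9.26 and 9.18 under T3, a rise of 0.70 ± 0.09 (adjusted p = 8.31e-04). Pdp2, the phosphatase subunit that activates pyruvate dehydrogenase, read 8.69, 8.69 and 8.51 against 9.15, 9.16 and 9.16 and rose by 0.53 ± 0.08 (adjusted p = 0.00342). In both genes the spread within a treatment was small beside the shift. Stat5a, a transcription factor of growth hormone and cytokine signalling, stood at 7.57, 7.71 and 7.58 with PBS and at 8.08, 8.28 and 8.20 with T3, a rise of 0.57 ± 0.09 (adjusted p = 0.00758). Its second probe set, dimmer at a PBS mean of 5.95, gave 0.50 and was not called. Tefm, the elongation factor of mitochondrial transcription, rose by 0.39 ± 0.08 (adjusted p = 0.0373). Its T3 arrays (8.40 to 8.61) lay just above its PBS arrays (7.96 to 8.27). Gramd1c, a sterol transfer protein, rose by 0.89 ± 0.15 (adjusted p = 0.00909), from 8.66 to 9.24 with PBS to 9.50 to 10.06 with T3. Dexi rose by 0.53 ± 0.09 (adjusted p = 0.0143), with T3 replicate 1, at 9.16, above the other T3 arrays (8.83 and 8.86).

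Further rises came from genes of several kinds. Adgrg3, an adhesion G protein-coupled receptor, read 6.52, 6.67 and 6.30 with PBS and 7.17, 7.46 and 7.70 with T3 and rose by 0.95 ± 0.14 (adjusted p = 0.00186). Art3, of the ADP-ribosyltransferase family, read 5.70, 5.79 and 5.62 against 6.49, 6.64 and 6.26 and rose by 0.76 ± 0.10 (adjusted p = 0.00113). Both kept their call whichever KO array was left out. Pxdn, the peroxidase that crosslinks collagen IV, rose by 0.76 ± 0.15 (adjusted p = 0.0304), but its T3 replicate 1 (7.57) lay closer to the PBS arrays (7.23 to 7.34) than to the other T3 arrays (8.38 and 8.14). Gbp3, an interferon-inducible GTPase, rose by 0.86 ± 0.17 (adjusted p = 0.0406), with T3 replicate 1 (7.33) likewise next to PBS replicate 1 (7.18). Without that T3 array both estimates were larger, at 0.99 and 1.09. Fggy, a carbohydrate kinase, rose by 0.33 ± 0.06 (adjusted p = 0.0304), from 10.76 to 10.92 with PBS to 11.14 to 11.18 with T3.

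The falls formed a different set. Vim, the intermediate filament protein vimentin of mesenchymal and endothelial cells, read 9.79, 9.99 and 9.78 with PBS and 8.20, 9.28 and 9.06 with T3, a fall of -1.01 ± 0.20 (adjusted p = 0.0373). T3 replicate 1 was its lowest array, and without it the difference was -0.68 and not called (adjusted p = 0.171). The 3 probe sets of Vim gave -0.99 to -1.11. Hspb1, a small heat shock protein, fell by 0.88 ± 0.12 (adjusted p = 0.00147), from 10.79, 11.29 and 11.03 with PBS to 10.24, 10.18 and 10.04 with T3. Its KO T3 arrays lay within the range of WT and GS arrays of both treatments (9.84 to 10.30), and the KO PBS arrays stood above that range. In Y147F its arrays read 10.25, 10.54 and 10.66 with PBS and 10.12, 9.84 and 10.23 with T3, a fall of -0.43 (adjusted p = 0.0262), so 2 PBS arrays of Y147F lay above that range too. The second probe set of Hspb1 gave -0.93 and was called too.

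The other 5 falls were Slc41a2, a magnesium transporter, at -0.90 ± 0.18 (adjusted p = 0.0373), Akap12, a scaffold of protein kinase A, at -0.71 ± 0.13 (adjusted p = 0.0231), and Ppl, the cytolinker periplakin, at -0.55 ± 0.09 (adjusted p = 0.00758). Cyp2c23, a cytochrome P450, fell by 0.54 ± 0.10 (adjusted p = 0.029) and Plp2, a small membrane protein, by 0.47 ± 0.08 (adjusted p = 0.00933). For Slc41a2 the PBS arrays (7.07, 7.43 and 7.75) spread more widely than their distance from the nearest T3 array (6.72, 6.13 and 6.70 with T3). Cyp2c23 was the brightest of the 7, at 12.71 to 12.76 with PBS and 12.04 to 12.36 with T3. Of the 7 falls only Hspb1 was called without KO PBS replicate 2 (-0.75 ± 0.12, adjusted p = 0.0105), whereas 12 of the 18 rises were. The other falls lost their call with differences of -0.94 (Vim), -0.89 (Slc41a2), -0.59 (Akap12), -0.55 (Cyp2c23), -0.48 (Ppl) and -0.37 (Plp2), beside -1.01, -0.90, -0.71, -0.54, -0.55 and -0.47 over all arrays.

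Genes of the stress lists are given beside these falls, and among them Hspb1 alone was called. Hspa1b, the inducible heat shock protein 70, read 9.96, 11.49 and 10.22 in the KO PBS arrays and 9.50, 9.52 and 9.06 in the KO T3 arrays, beside 8.14 to 9.25 in WT and GS arrays (-1.20 ± 0.34, adjusted p = 0.186). Egr1, an immediate early gene, was highest in KO PBS replicate 2 (9.69) among the 18 arrays of WT, KO and GS, and so were Jun (9.95) and the acute phase gene Saa1 (12.99). Their T3 differences were -1.09, -0.70 and -1.19, none of them called, and the arrays of Egr1 overlapped between treatments. In the other direction, the small heat shock protein Hspb8 gave 0.30 (11.40 to 11.54 with PBS, 11.56 to 12.07 with T3), not called. The part of stress in the called falls was not tested.

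Genes just short of the threshold were Ada (0.78), Ciapin1 (0.56), C1qtnf1 (0.57), Usp38 (0.44), Gch1 (0.41), Cpne8 (-0.54), Klhl6 (-0.45) and Tob2 (-0.66), with adjusted p between 0.0649 and 0.0693, against 0.0406 for the called gene with the highest adjusted p. Ada encodes adenosine deaminase, and Gch1 the first enzyme of tetrahydrobiopterin synthesis.

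Most of what rose without TRβ also rose with it. Of the 18 genes, 14 were called higher in WT as well, which is 77.8% of the KO genes and 1.73% of the 810 genes called higher in WT (5.72% of genes tested). The KO and WT contrasts share no array, but they share the filter and the estimate of spread per gene. The responses themselves were then compared: KO minus WT called 437 genes (3.09%), 146 with a higher response in KO (1.03%) and 291 with a lower one (2.05%). The 14 shared genes fell into 2 groups of 7 by this test.

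In 7 of them, Dio1, Slc25a45, Gramd1c, Coq10a, Stat5a, Dexi and Pdp2, the response in KO was smaller than in WT. Slc25a45 read 8.08, 8.19 and 8.49 in WT with PBS and 10.84, 11.01 and 11.01 with T3, so that its KO arrays lay inside this span from both ends. The difference of the responses was -1.68 ± 0.18 (adjusted p = 7.98e-06), and the KO response was 37.9% of that of WT. The same held for each of the 7: every KO PBS array lay above every WT PBS array and every KO T3 array below every WT T3 array, an arrangement found in 1.14% of all genes tested and in 42.2% of the 282 genes called higher in WT with a called smaller response. Because the 7 were chosen by the difference of the responses, this arrangement is a description. The KO response was 42.3% of that of WT for Gramd1c, 36.2% for Dexi, 35.5% for Coq10a, 28.3% for Stat5a and 28.2% for Pdp2. For Dio1 no such ratio is given, since its WT PBS arrays (5.06, 4.49 and 4.50) were close to the dimmest 25% of probe sets, which end at 4.69 to 4.72 on those arrays. With T3 Dio1 reached 10.92 to 11.67 in WT against 7.45 to 8.06 in KO.

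In the other 7, 9030619P08Rik, Adgrg3, Gbp3, Art3, Pxdn, Tefm and Fggy, the difference from WT was not called. For Adgrg3 it was 0.08 (95% interval -0.32 to 0.48), with 6.46 to 6.65 in WT under PBS and 7.24 to 7.50 under T3. For Pxdn it was -0.02 (-0.45 to 0.41), for Gbp3 0.06 (-0.45 to 0.57), for Art3 -0.12 (-0.42 to 0.18), for Tefm 0.11 (-0.12 to 0.34) and for Fggy -0.13 (-0.32 to 0.05). These intervals are wide beside KO responses of 0.33 to 0.95, so equal responses are not shown. For 9030619P08Rik the interval, -1.88 to -0.33, lay below 0, but the difference of -1.10 did not pass the adjustment (adjusted p = 0.137).

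**Figure D2:**
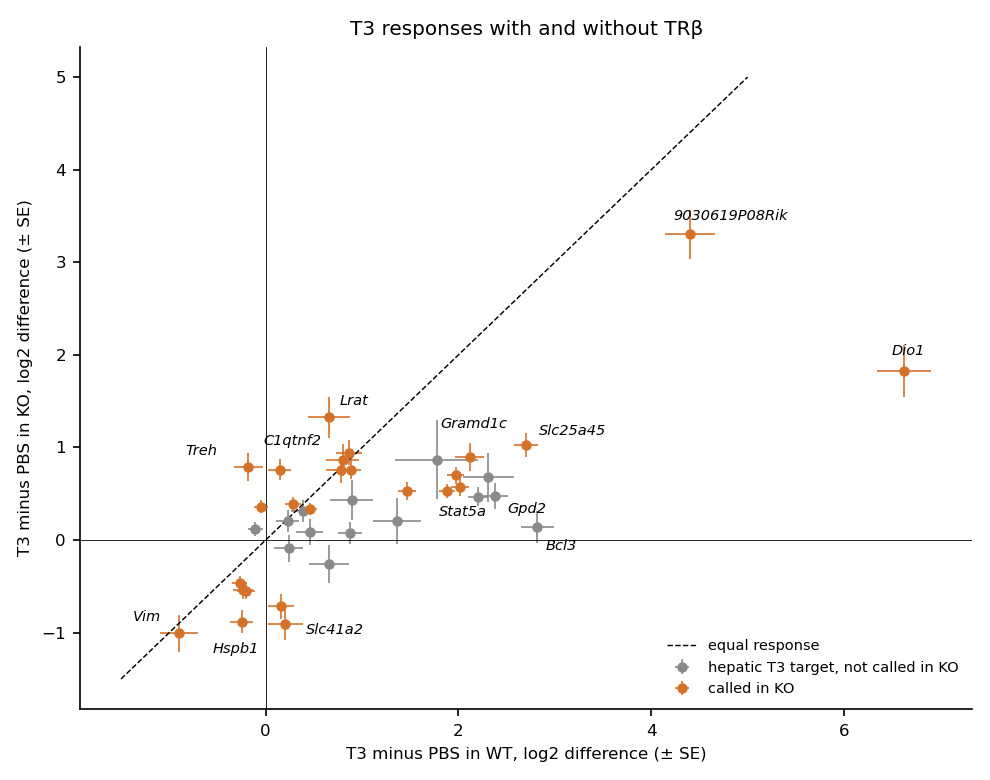
The T3 response in WT (x axis) is set against that in KO (y axis), both as log2 differences with SE, for the 25 genes called in KO and the 14 hepatic T3 targets not called there. Points on the dashed line would have equal responses: Lrat, Treh and C1qtnf2 lie above it, while Dio1 (6.63 in WT and 1.82 in KO), Slc25a45 and Stat5a lie well below.

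The other 4 rises were not called in WT, and for 3 of these the difference from WT passed the test. Treh, which splits trehalose, read 4.69, 4.97 and 5.35 in KO with PBS and 5.91, 5.77 and 5.69 with T3, a rise of 0.79 ± 0.15 (adjusted p = 0.0304), against -0.18 in WT (KO minus WT 0.97, interval 0.52 to 1.42, adjusted p = 0.0123). Its KO T3 arrays lay above all WT and GS arrays (4.65 to 5.52). Treh is dim, and it entered the test only through 3 KO T3 arrays and 1 WT array that reached the 40th percentile, so a low value in the other arrays was a condition of its entry. C1qtnf2, a secreted protein of the C1q and TNF family, read 5.11, 5.40 and 5.18 with PBS and 5.71, 6.11 and 6.14 with T3, a rise of 0.76 ± 0.12 (adjusted p = 0.00353). In WT it differed by 0.15 (KO minus WT 0.62, interval 0.27 to 0.96, adjusted p = 0.0424), while in Y147F it was called higher (0.53). It too is dim, with no KO PBS array at the 40th percentile. Tango2 rose by 0.36 ± 0.07 (adjusted p = 0.0373) with -0.05 in WT (KO minus WT 0.41, adjusted p = 0.026), and its other, dimmer probe set gave -0.01. Lrat differed by 0.66 in WT, and the difference of 0.67 between the genotypes was not called (interval 0.01 to 1.32, adjusted p = 0.385). Its WT PBS arrays (9.19 to 9.37) lay above all KO PBS arrays.

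Of the 7 falls, Vim and Plp2 were also called lower in WT (-0.90 and -0.27), where 695 genes were (4.91%). For Akap12 and Slc41a2 the response differed from WT, by -0.88 (adjusted p = 0.0092) and -1.11 (adjusted p = 0.0155), since both had a difference above 0 in WT (0.16 and 0.20). For Hspb1 (-0.63, adjusted p = 0.0505), Ppl (-0.34, adjusted p = 0.199) and Cyp2c23 (-0.30, adjusted p = 0.4) it was not called. Ppl stood at 8.49 to 8.51 in WT with PBS, above all KO arrays.

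**Figure D3:**
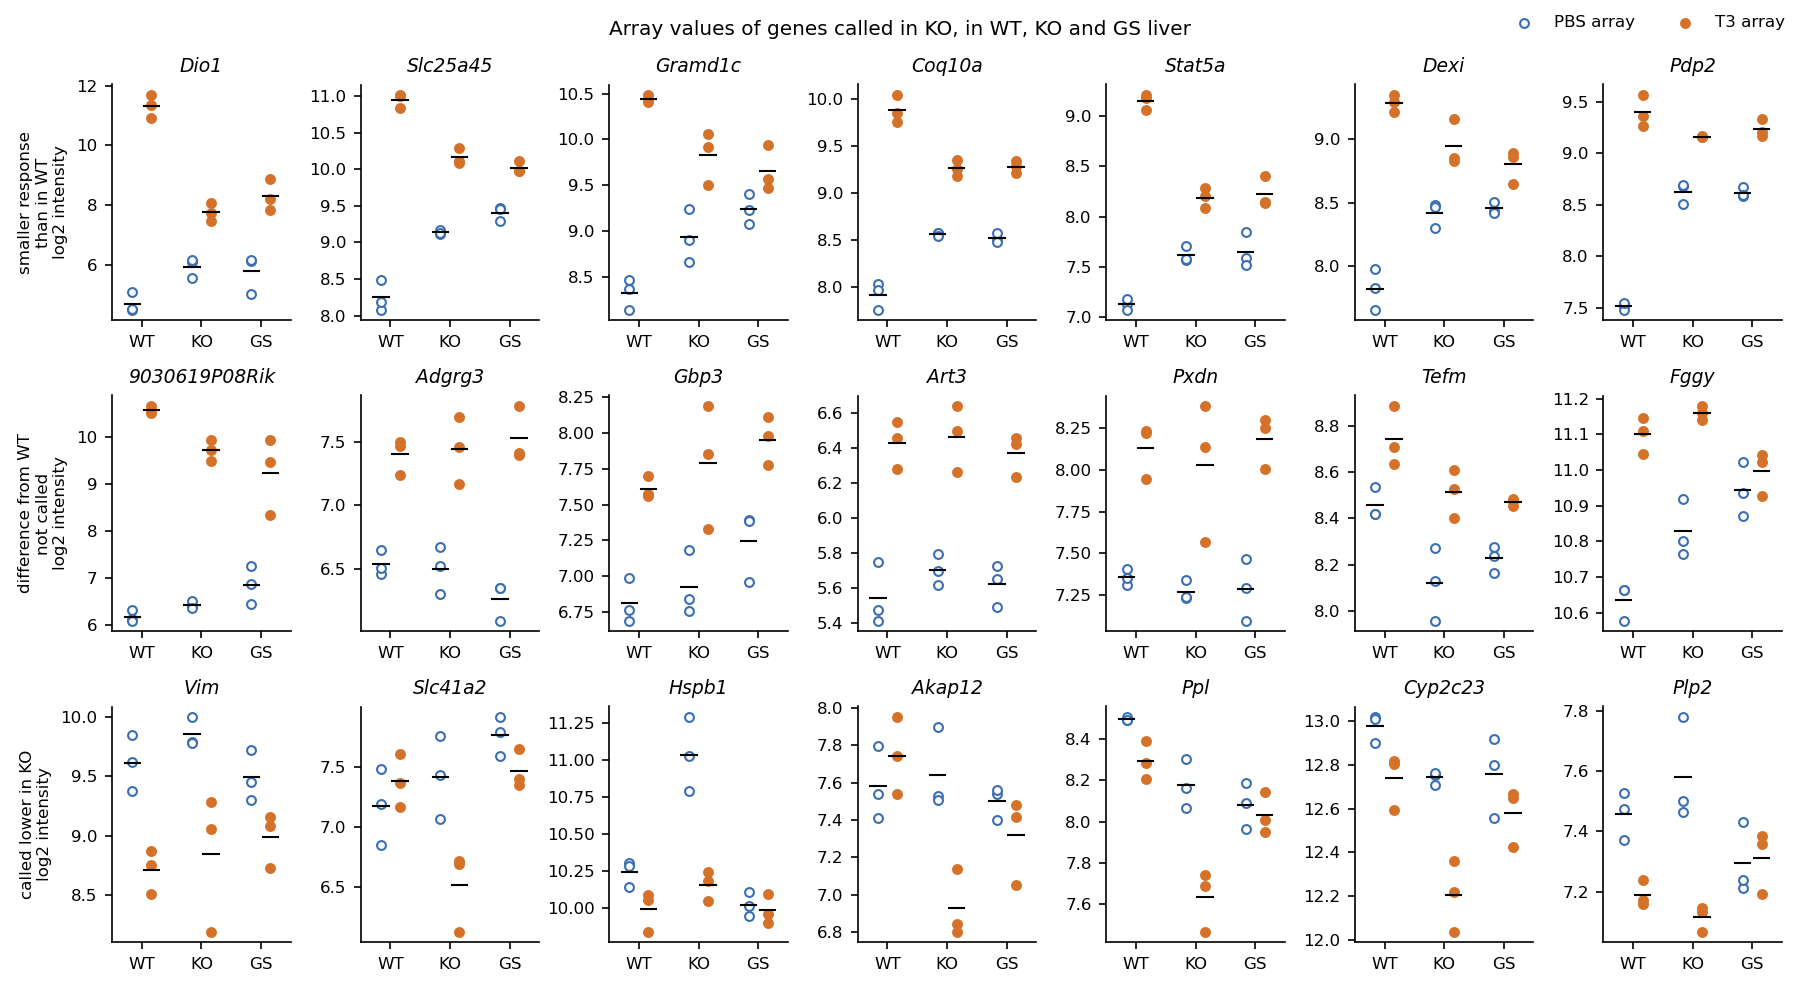
Each panel shows the log2 intensity of 1 gene in the 3 PBS arrays (open points) and 3 T3 arrays (filled points) of WT, KO and GS, with black lines at the group means and a separate y axis per gene. The top row holds the 7 genes with a smaller response than in WT, whose KO points lie between the WT PBS and WT T3 points. The middle row holds the 7 whose difference from WT was not called, and the bottom row the 7 called lower in KO, and the KO PBS arrays of Hspb1 stand above its WT and GS arrays.

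Looking from the other side, genes that T3 changed in WT were read in the KO arrays, which enter no WT difference. The KO arrays did enter the filter and the spread per gene behind the WT calls. A gene of small spread is thus favoured for a low p in both genotypes. The 810 genes called higher in WT had a median difference of 0.10 in KO beside 0.49 in WT, and 75.4% of them lay above 0 in KO, against 46.6% of all genes tested. At an unadjusted p under 0.05, 24.2% were higher in KO, against 4.91% of all genes. The median of the KO response as a share of the WT response was 18.3%, and 282 of the 810 had a called smaller response in KO. Genes chosen by their WT response are favoured for a small share and a smaller response in KO. These values, here and for the other sets called in WT, are therefore a description. The 695 genes called lower in WT had a median of -0.09 in KO beside -0.45 in WT, with 75% below 0 (all genes 53.4%) and a median share of 20.3%. Among the 131 genes at least 2-fold higher in WT, the KO median was 0.29 against 1.36, 89.3% lay above 0, and 106 had a called smaller response. Among the 61 genes at least 2-fold lower in WT, it was -0.15 against -1.29 with a median share of 9.44%. The sets called in Y147F, which share no array with KO or WT, gave KO medians of 0.08 for 785 genes called higher there (5.54%) and -0.06 for 859 called lower.

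**Figure D4:**
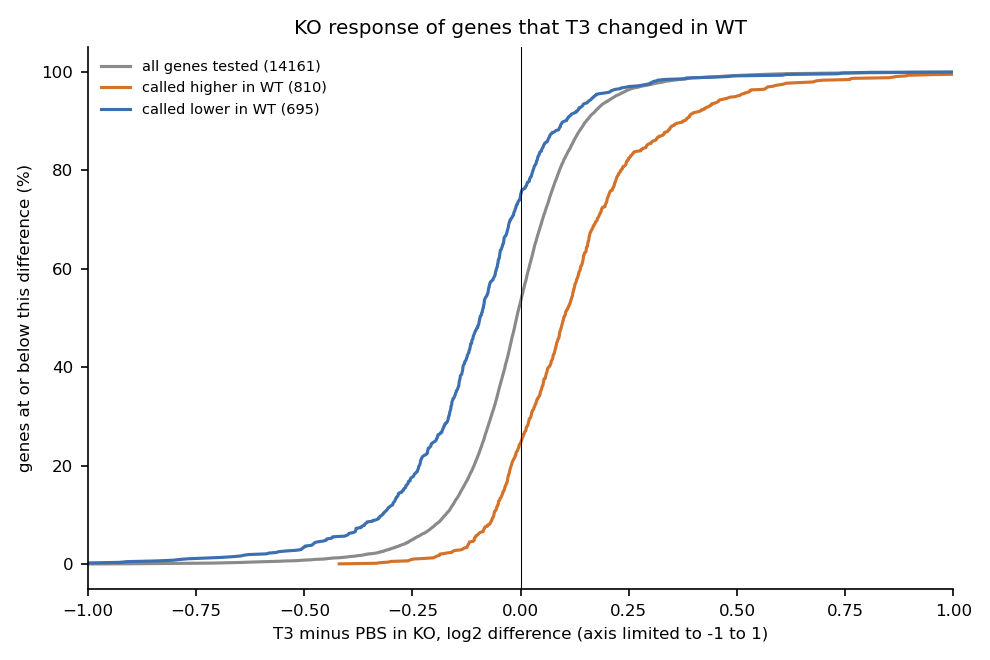
The y axis gives the percentage of genes whose T3 difference in KO lies at or below the value on the x axis, for all 14161 genes tested, the 810 called higher in WT and the 695 called lower in WT. The curve of the genes higher in WT is shifted to the right (median 0.10) and that of the genes lower in WT to the left (median -0.09) of the curve of all genes (-0.01).

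The 10 steepest rises in WT were all above 0 in KO, with a median of 0.58 beside 2.68 in WT, and 8 of them had a called smaller response. Their choice by the WT response favours a smaller one in KO. Slc25a45, Dio1 and 9030619P08Rik were called in KO. Mup10, a major urinary protein, read 8.51, 7.65 and 7.18 with PBS and 10.32, 9.18 and 9.45 with T3 in KO, a difference of 1.87 ± 0.44 that was not called (adjusted p = 0.0895). The response in WT was 2.41, and KO differed from it by -0.54 (interval -1.85 to 0.76). Its KO PBS arrays stood above its WT PBS arrays (5.14 to 5.53). Mup genes resemble each other closely, so the probe set may read several. Gadd45a, a growth arrest gene, gave 0.68 (WT 2.31), Gpd2, the mitochondrial glycerophosphate dehydrogenase, 0.48 (WT 2.38), and Frmd8 0.37 (WT 3.21). Bmf, a pro-apoptotic BCL2 relative, gave 0.22 (WT 2.65), Slc22a7, an organic anion transporter, 0.20 (WT 2.30), and Bcl3, a nuclear IκB protein, 0.15 (WT 2.82). For Slc22a7 the KO PBS arrays (9.62 to 10.39) already read as high as the WT T3 arrays (9.62 to 10.04).

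None of the 10 steepest falls in WT was called in KO, and 9 had a called smaller response there, which their choice by the WT response favours. Their signs in KO were split, with 5 below 0 and 5 above. Below 0 were the nuclear receptor Nr4a1 (-0.80), the cytokine signalling suppressor Socs2 (-0.63), the transglutaminase Tgm1 (-0.59), the inhibin subunit Inhbe (-0.38) and the monooxygenase Fmo2 (-0.23). Above it were the metallothioneins Mt1 (1.35) and Mt2 (0.74), the acyl-CoA thioesterase Acot3 (0.73), the ceramide synthase Cers6 (0.38) and Nipal1 (0.30), beside falls from -1.84 to -3.43 in WT. Mt1 read 11.03, 11.20 and 9.90 in KO with PBS and 12.67, 12.47 and 11.04 with T3, so the groups overlapped. KO minus WT was 3.19 for Mt1 (adjusted p = 0.0111) and 4.16 for Acot3 (adjusted p = 8.11e-04). Further genes with a higher response than in WT were Slc16a5, a monocarboxylate transporter family member (2.33), and Cish, a feedback inhibitor of STAT5 signalling (2.10).

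Mice with the GS receptor, changed in its DNA-binding domain, also had few calls. In GS 19 genes were called higher (0.134%) and 2 lower, and none of the 7 falls of KO was called lower there. Of the 19 genes called higher, 9 were also among the 18 of KO, which is 50% of the KO genes and 47.4% of the GS genes. These were 9030619P08Rik, Adgrg3, Art3, Coq10a, Dio1, Lrat, Pdp2, Pxdn and Stat5a, and all of them but Lrat were called higher in WT too. Their responses in GS were 2.39 for 9030619P08Rik, 2.52 for Dio1, 1.61 for Lrat and 1.27 for Adgrg3, against 3.30, 1.82, 1.33 and 0.95 in KO. KO minus GS was -0.69 for Dio1 (95% interval -1.52 to 0.14) and -0.01 for Stat5a (-0.28 to 0.27). No gene passed limma's test of KO minus GS (0%), where 809 had an unadjusted p under 0.05. Among the called genes of KO the differences from GS were widest for Treh (0.95, interval 0.50 to 1.40), 9030619P08Rik (0.91, 0.14 to 1.69) and Hspb1 (-0.84, -1.20 to -0.48), whose unadjusted intervals did not reach 0. For Treh no GS array reached the 40th percentile, so low GS values were a condition of its entry. In Y147F 15 of the 18 genes were called higher, among them Slc25a45 (3.21), Gramd1c (1.92) and Gbp3 (0.99).

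The results were also read by gene list, with no test of any list as a whole. The lists were chosen with earlier results of these data known, so their values, in WT too, are a description. The lists hold 498 genes in 31 lists, of which 432 genes were tested, and 19 lists had no member called in KO. The counts below stand beside all genes tested, of which 0.127% were called higher and 0.0494% lower, 46.6% lay above 0 and 53.4% below, and 4.91% were higher and 5.46% lower at an unadjusted p under 0.05. Of the 16 hepatic T3 targets tested, 2 rose (Dio1 and Stat5a, beside 0.127% of all genes), 14 lay above 0 (beside 46.6%), and the list median was 0.26, beside -0.01 for all genes and 1.13 for the list in WT, where 13 were called higher. Idh3a, a subunit of isocitrate dehydrogenase, read 9.99, 10.23 and 10.09 with PBS and 10.71, 10.55 and 10.46 with T3 (0.47 ± 0.11, adjusted p = 0.074). Klf9, a transcription factor, gave 0.32 in KO beside 0.38 in WT, and Cpt1a, the gatekeeper of fatty acid oxidation, 0.20 beside 0.23. Thrsp, a regulator of lipogenesis, gave 0.20 (WT 1.36), Me1, malic enzyme, 0.43 (WT 0.89) and Cyp7a1, which starts the classical route from cholesterol to bile acids, 0.87 (WT 1.77). Gpd2, Gadd45a and Bcl3 are given above. Hr (0.12), Slc16a10 (0.09), Mlxipl (0.08), Pck1 (-0.09) and G6pc (-0.26) completed the list.

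Among genes of hormone handling, 1 of 15 rose (Dio1), 5 were higher at an unadjusted p under 0.05 (beside 4.91% of all genes), and the sulphotransferases that inactivate thyroid hormones and phenols, Sult1d1 (0.56), Sult1b1 (0.38) and Sult1a1 (0.30), were among these without being called. Sult1b1 differed from WT (0.53, adjusted p = 0.0202), where it gave -0.15. Of 18 retinoid genes, Lrat rose and the median was 0.09, with Rarb, a retinoic acid receptor (0.58), and Adh4, a retinol dehydrogenase (-0.38), not called. Coq10a was the called member among 11 genes of coenzyme Q (median 0.12), Slc25a45 among 17 mitochondrial carriers (0.05) and Pdp2 among 14 genes of glucose metabolism (-0.05). None of 23 subunits and factors of oxidative phosphorylation was called (median 0.07), nor any of 16 receptors, RXR and coregulators (0.02, a sign that changed in 2 of 13 other settings). Of the oxidative phosphorylation genes 21 lay above 0, and of the receptor list 8, beside 46.6% of all genes. The mean level of the former list was 12.85 to 12.89 with T3 and 12.78 to 12.83 with PBS.

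No member was called among 20 genes of fatty acid and triglyceride synthesis (median 0.08, beside 0.28 in WT), 17 genes of fatty acid oxidation (0.13), 14 of cholesterol synthesis (0.07) or 16 of bile acid synthesis and sterol export (0.02). The medians of fatty acid synthesis, cholesterol and bile acid genes changed sign in 1 or 2 of 13 other settings. At an unadjusted p under 0.05, these 4 lists held 0, 1, 0 and 2 genes higher and 0, 0, 0 and 1 lower. In the same order, 16, 12, 10 and 10 members lay above 0, beside 46.6% of all genes. The sterol exporters Abcg5 (0.64 ± 0.16, adjusted p = 0.121) and Abcg8 (0.57 ± 0.18, adjusted p = 0.231) had non-overlapping groups, with Abcg5 at 10.98 to 11.50 under PBS and 11.79 to 11.98 under T3. Cyp7b1, of the alternative bile acid pathway, gave -0.71 ± 0.18 (adjusted p = 0.134). Cyp4a14, an ω-hydroxylase of fatty acids, gave 1.32 with overlapping arrays (9.86 to 12.68 and 11.77 to 13.31). In growth hormone signalling (14 tested, median -0.07) Stat5a rose and its relative Stat5b gave 0.29 ± 0.08 (adjusted p = 0.204). The highest and lowest differences of this list, 0.81 for Cish and -0.94 for Bcl6, were not called. At an unadjusted p under 0.05, 3 members were higher and 1 lower.

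The lists with the lowest medians were those of the cytoskeleton, stress and cells other than hepatocytes. Of 23 cytoskeletal genes 1 fell (Vim, beside 0.0494% of all genes), 21 lay below 0 (beside 53.4%), 11 were lower at an unadjusted p under 0.05 (beside 5.46%), and the median was -0.20. Krt18 and Krt8, the keratins of hepatocytes, gave -0.48 and -0.32, and Lmna, a lamin, -0.32, none called. In WT the same list had a median of -0.19, and in GS one of 0.03. Hspb1 fell among 13 heat shock genes (median -0.15) and no gene was called among 14 immediate early genes (-0.26), 18 genes of ER stress (-0.16), 15 FOXO1-responsive genes (-0.12), 17 acute phase genes (-0.08), 15 cell cycle genes (-0.02) or 17 clock genes (-0.03). In the same order, 9, 11, 16, 11, 17, 8 and 9 members lay below 0, beside 53.4% of all genes. Of the immediate early genes 3 lay above 0, Junb (0.12), Ier2 (0.11) and Myc. Myc gave 1.64, with T3 replicates 1 and 2 at 9.25 and 10.36 and T3 replicate 3 within the range of the PBS arrays (6.92 to 7.40). Gbp3 was the called member of 20 interferon-stimulated genes (0.09), and Cyp2c23 of 24 genes of P450 families 1 to 3 and xenosensors (0.01). The medians of the clock, cell cycle, interferon and P450 lists changed sign in 1 to 3 of 13 other settings.

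Markers of other liver cells lay mostly below 0 with T3, where 53.4% of all genes did. This was so for 12 of 13 Kupffer cell markers (median -0.24, mean list level 8.88 to 9.27 with T3 and 9.17 to 9.34 with PBS), for 10 of 12 sinusoidal endothelial markers (-0.14, 8.74 to 9.12 and 9.06 to 9.08), for 13 of 14 stellate cell markers (-0.28, 8.53 to 9.00 and 8.94 to 9.22) and for 7 of 7 cholangiocyte markers (-0.20, 6.16 to 6.33 and 6.37 to 6.89). In the same order, the list medians were -0.16, -0.16, -0.08 and -0.26 in WT and 0.24, -0.14, 0.003 and 0.05 in GS. Of the stellate markers 6 were lower in KO at an unadjusted p under 0.05, beside 5.46% of all genes. Hepatocyte markers had a median of -0.03, which changed sign in 1 other setting. None of these markers was called lower, and Lrat, which the liver holds mainly in stellate cells, was the only stellate marker above 0. Pdgfrb (-0.67), a stellate receptor, was lowest in KO T3 replicate 1 (7.04, others 8.04 and 8.06), as Vim was, and the cholangiocyte gene Cldn7 (-0.69) was highest in KO PBS replicate 2 (7.53, others 6.28 and 6.32). Markers of T, B and NK cells (8 tested, 0.01), of neutrophils and monocytes (8 tested, 0.03) and of red cells (2 tested, -0.09) had no called member. The first 2 of these medians changed sign in 3 and 1 of the other settings. In bulk liver RNA fewer cells of a type cannot be told apart from less RNA per cell, and the part of cell composition in the falls of Vim and its neighbours was not tested.

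**Figure D5:**
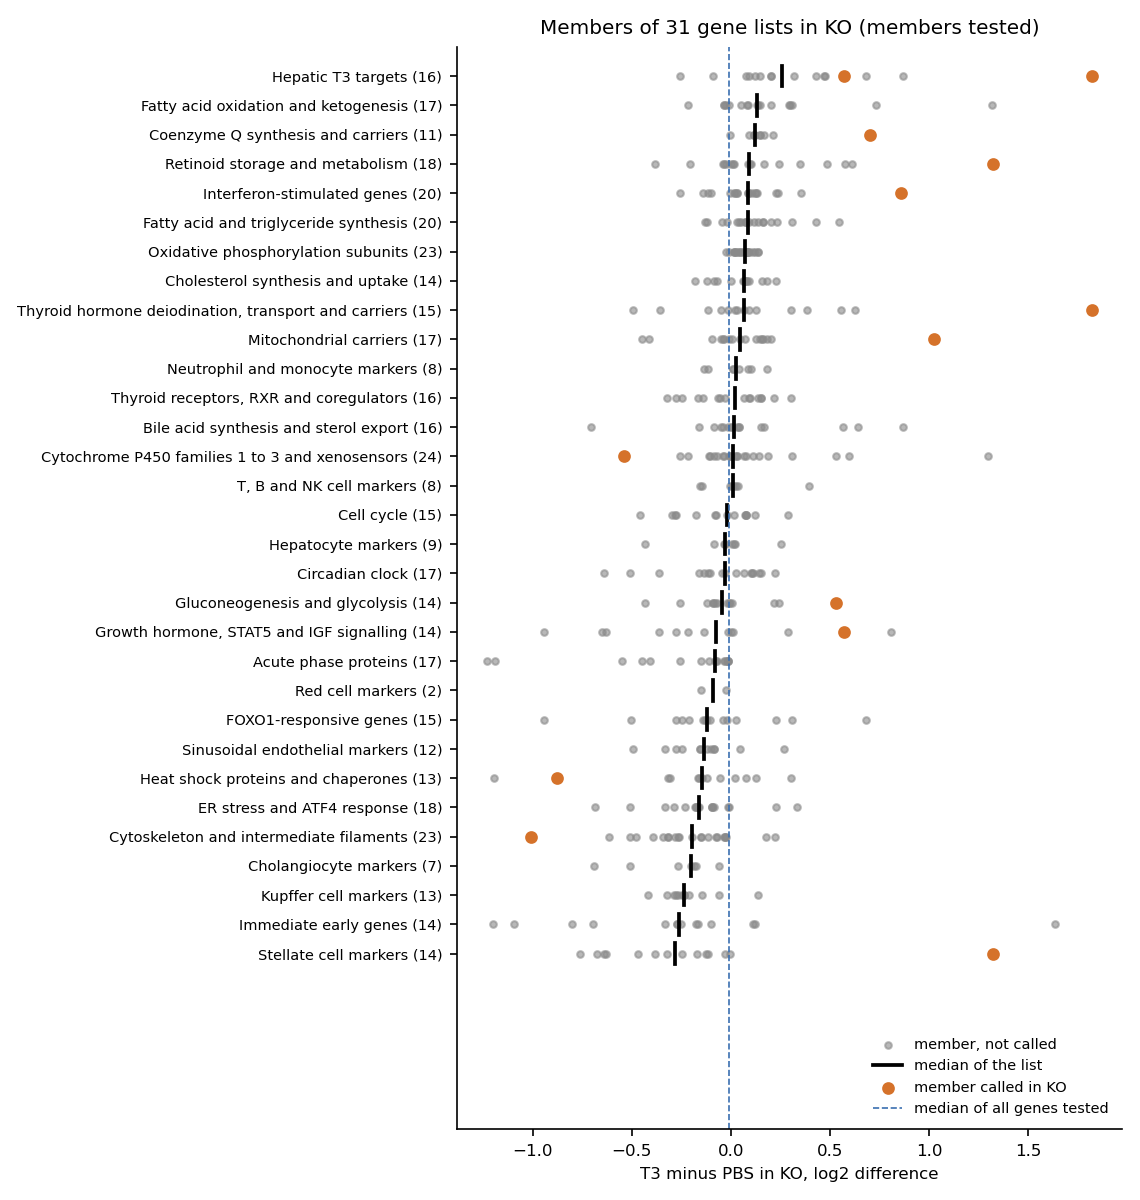
Each row is 1 of 31 gene lists with the number of members tested, grey points are T3 differences of its members in KO on a log2 scale, orange points are members called in KO and black bars are list medians. The dashed line is the median of all genes tested (-0.01), with hepatic T3 targets at the top (0.26) and stellate cell markers at the bottom (-0.28).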

How the data were processed

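RNA of 24 mouse livers was hybridised to 1-colour Affymetrix arrays. The deposited values are log2 intensities per probe set, which the authors summarised with RMA, per the labels (version not given in the sources used). The Y147F columns lacked decimal points, which were restored to values from 3 to 16, and 1531 cells (0.566%) were set as missing. A trial on intact columns restored 808849 values with 0 errors. Of 45101 probe sets, 34958 had 1 gene symbol, 932 several and 9211 none. Each gene was read by its brightest probe set and kept where 3 or more arrays had it above the dimmest 40% of their probe sets. limma 3.58.1 in R 4.3.3 fitted 8 group means over 24 arrays, with moderated tests and Benjamini-Hochberg adjustment over 14161 genes, of which 459 had a missing cell. This residual spread, shared by all groups, had 16 degrees of freedom. The fit was tested on simulated data. Genes named are those called in KO, the next 8 by p, up to 4 members of each list with the smallest p, all hepatic T3 targets, Thrb and Thra, the 10 largest rises and falls in WT and the largest differences KO minus WT. Stress and cell markers shown by array come from these lists. Members and lists were chosen with earlier results of these data known. The alternatives tried were other normalisations, filters, probe set rules, variance settings, array sets, array weights, a minimum fold change, and each KO or WT array omitted in turn. WT arrays were omitted for KO minus WT only, and no GS or Y147F array was omitted.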

Additional observations from a re-analysis of the deposited data

Results flagged for a closer look

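Of the 165 genes named by rule, 40 had a T3 response in KO that differed from the response in WT by a direct test (limma, adjusted p under 0.05). Among the genes called in KO, the response was above that in WT for Treh (difference 0.97), C1qtnf2 (0.62) and Tango2 (0.41). Treh passed the filter only through its 3 KO T3 arrays and 1 WT array, so its difference was favoured by its entry. The response was below that in WT for Dio1 (-4.80), Slc25a45 (-1.68), Stat5a (-1.45), Pdp2 (-1.35), Coq10a (-1.27), Gramd1c (-1.22) and Dexi (-0.94), and for the falls Slc41a2 (-1.11) and Akap12 (-0.88). Of the next genes by p in KO it was below for Gch1 (-0.89), Tob2 (-0.84) and Ciapin1 (-0.64).

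Other genes were named for a large change in WT or for this difference itself, so that their choice favours a difference, and their values are a description. The response was below that in WT for Frmd8 (-2.84), Bcl3 (-2.67), Bmf (-2.43), Slc22a7 (-2.10), Gpd2 (-1.90), Ighm (-1.79), Idh3a (-1.74) and Gadd45a (-1.63). It was above that in WT for genes called lower in WT, namely Acot3 (4.16), Nipal1 (3.27), Mt1 (3.19), Socs2 (3.08), Mt2 (3.04), Slc16a5 (2.33), Cers6 (2.31), Cish (2.10), Inhbe (1.81), Fmo2 (1.75) and Tgm1 (1.60). Of the other list members it was below for Stat5b (-1.16), Slc25a42 (-0.99), Agpat2 (-0.93) and Mlxipl (-0.80), and above for Nfil3 (1.09) and Sult1b1 (0.53). Groups of 3 arrays are too small for a test of single outlying arrays.

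Probe sets without a single gene symbol took no part in the comparisons. Of 4118 such probe sets tested, 2 were called in KO, both higher, by 1.13 and 0.85.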

How the results depend on the processing

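The count of 25 genes called in KO ranged from 20 to 29 under quantile normalisation, median centring, no filter, a stricter filter, the mean of probe sets, a variance trend, the 18 first-submitted arrays and array weights. It was 6 when only the 6 KO arrays were fitted, which leaves fewer residual degrees of freedom, and 5 when a 2-fold change was also required. Leaving out 1 KO array at a time gave 16 to 31 calls, 16 without T3 replicate 1 (15 of them among the 25). The 437 genes of KO minus WT became 120 with at least a 2-fold difference, 330 to 400 with 1 KO or WT array left out, and 354 to 545 under the other alternatives. Under median centring 80% of KO calls were higher, beside 72%. None of the differences called in KO turned its sign under any alternative that gave it a value. KO minus GS called 0 genes in limma under each alternative run for it, which did not include leaving out arrays, while 809 had an unadjusted p under 0.05. No paired analysis was possible because the numbers in the titles are not shared between groups. With 3 arrays per group, a call can hang on 1 array. The dim gene Treh lost its call without T3 replicate 1 and also without PBS replicate 2. So did Fggy, Tango2 and Tefm, the smallest of the called rises. C1qtnf2, which is dim too, kept its call whichever KO array was left out. The labels do not say which part of Thrb was deleted.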

Other observations

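Further genes of the lists had a T3 response in WT that was smaller in KO by the test of the difference (limma). Slc25a42, a mitochondrial carrier of coenzyme A, read 9.20 to 9.32 with PBS and 9.33 to 9.51 with T3 in KO (0.16, not called) beside a rise of 1.15 in WT, and the responses differed by -0.99. Agpat2, of triglyceride synthesis, gave 0.24 in KO beside 1.16 in WT (difference -0.93). Stat5b gave 0.29 beside 1.45 (difference -1.16), and Gch1 0.41 beside 1.31 (difference -0.89). Nfil3, a transcriptional repressor tied to the clock, gave -0.36 in KO beside a fall of -1.45 in WT (difference 1.09). Per1, a clock repressor, gave -0.64 in KO (8.95 to 9.03 with PBS, 8.10 to 8.62 with T3) and fell by 0.76 in WT, and this difference between genotypes was not called.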
